A study of Mus musculus with 6 samples.

Results

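A set of 48 genes of mitosis and the kinetochore was followed in hematopoietic cells of the mouse spleen and mesenteric lymph node (mLN, which drains the intestine). The genes were taken by name from a fixed list, chosen with earlier results of these data known. All 48 were found among the 55487 gene rows of each table and among the 14427 genes with enough counts to be tested. They comprise 10 mitotic cyclins and kinases with their phosphatases, 4 subunits of the chromosomal passenger complex, 10 centromere and kinetochore genes and 5 genes of the spindle checkpoint. A further 4 act at the switch to anaphase, 5 on the spindle, 4 in cytokinesis and 6 on condensin and chromosome structure. Both groups were CD45+ cells, that is, cells carrying the surface protein of nearly all leukocytes. They came from C57BL6/J mice of WT genotype and were freshly prepared, with no other treatment named. PolyA RNA was sequenced in 3 spleen libraries of 16163783 to 17133045 expected counts and 3 mLN libraries of 12584244 to 18119551. Nothing in the labels says that the libraries of a tissue were made from different mice. The p-values below therefore refer to the spread of these 6 samples, part or all of which may be technical.

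Cell division is driven by cyclins that switch on the kinase Cdk1. Chromosomes are then compacted by condensin, attached to spindle microtubules at the kinetochore, held back by the spindle checkpoint until every attachment is made, and parted when separase cuts cohesin. Most of these genes are transcribed late in the cell cycle, in good part through a promoter word called the cell-cycle genes homology region (CHR), often found near CCAAT boxes, which the factor NF-Y binds. In the adult mouse, dividing cells of the spleen include blood precursors of the red pulp beside lymphocytes, whereas those of lymph nodes are mainly activated lymphocytes.

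Promoter sequences are shown first because most members share these words. The RefSeq promoter table (build GRCm38.p6) gave 46 entries for 41 of the 48 members, each running from 250 bases before to 50 after a gene start. Ccna2, Cdc25c, Spc24, Incenp, Aurkb, Tpx2 and Smc4 had no entry. RefSeq starts can lie a little inside or outside the GENCODE extents given for genes below. The 6 stretches printed are the 150 bases before the start, read 5′ to 3′ along the gene, of the member with the largest fall in each of 6 roles among those whose stretch held a CHR word. Capitals mark CHR words (TTTGAA, or TTCAAA where it lies on the other strand) and CCAAT boxes (CCAAT, or ATTGG on the other strand). Counting back from the start, with the last base before it as -1, the CHR word began at -29 in Ube2c, at -116 and -98 in Mki67 and at -30 in Ckap2l. It began at -71 and -15 in Cdk1, at -30 in Prc1 and at -9 in Cenpn.
Ube2c (chr2:164769779-164769928, plus strand): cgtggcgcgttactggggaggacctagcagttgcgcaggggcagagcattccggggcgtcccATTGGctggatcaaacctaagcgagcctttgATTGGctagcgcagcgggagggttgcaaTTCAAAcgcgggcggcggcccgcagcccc
Mki67 (chr7:135716380-135716529, minus strand): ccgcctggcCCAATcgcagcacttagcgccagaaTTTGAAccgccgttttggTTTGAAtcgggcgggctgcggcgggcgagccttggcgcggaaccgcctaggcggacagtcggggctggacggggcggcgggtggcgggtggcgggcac
Ckap2l (chr2:129297213-129297362, minus strand): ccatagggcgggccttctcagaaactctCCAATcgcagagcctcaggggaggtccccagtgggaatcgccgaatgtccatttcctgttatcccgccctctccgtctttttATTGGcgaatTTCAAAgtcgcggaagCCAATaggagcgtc
Cdk1 (chr10:69352913-69353062, minus strand): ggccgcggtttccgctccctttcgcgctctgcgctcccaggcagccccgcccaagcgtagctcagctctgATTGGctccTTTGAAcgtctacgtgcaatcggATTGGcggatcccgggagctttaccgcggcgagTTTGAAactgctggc
Prc1 (chr7:80294326-80294475, plus strand): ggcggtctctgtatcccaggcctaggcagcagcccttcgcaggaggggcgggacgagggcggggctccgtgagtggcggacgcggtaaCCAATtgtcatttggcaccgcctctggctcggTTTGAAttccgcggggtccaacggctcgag
Cenpn (chr8:116921590-116921739, plus strand): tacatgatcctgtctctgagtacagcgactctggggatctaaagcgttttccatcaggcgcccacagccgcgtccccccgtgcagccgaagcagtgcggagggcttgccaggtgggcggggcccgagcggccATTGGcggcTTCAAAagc

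A CHR word (TTTGAA or TTCGAA, both strands) was present in 33 of the 46 member entries (71.7%), against 19.2% of all 32851 entries of the same length. Most of these words lay close to the start: 35 of 45 fell between the last 100 bases before it and 50 after it. In that window, chosen after the positions were seen, 69.6% of member entries and 8.59% of all entries held one. Within the upstream bases alone the shares were 39.1% and 17.1%, so a large part of the words lay in the first transcribed bases. CCAAT boxes (both strands) were present in 80.4% of member entries and 37.4% of all entries, and 31 member entries held both kinds of word. E2F words (TTCGCGC or TTGGCGC, both strands, the TTGG of which can overlap a CCAAT box on the other strand) were present in 15.2% and 3.89%. A match describes letters in a window and does not show a bound site.

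**Figure D1:**
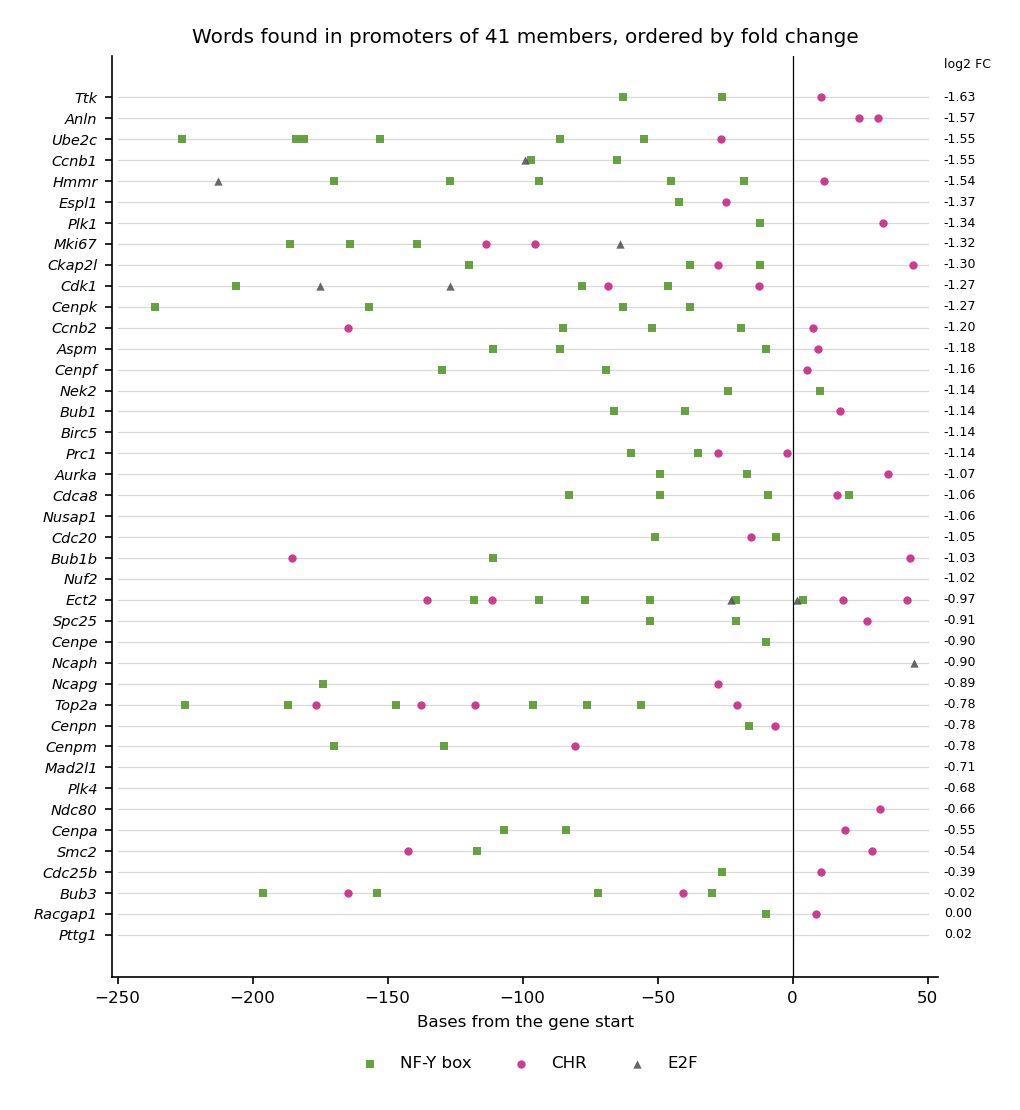
Each row is 1 of the 41 members with a promoter entry, ordered by log2 fold change (mLN over spleen, printed at the right). The x axis is the distance in bases from the gene start, and each point is the middle of a CHR word, an NF-Y (CCAAT) box or an E2F word, pooled over the entries of a gene. CHR words gather from 100 bases before to 50 after the start, at the top and at the bottom of the order alike.

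Most of the mitotic genes were lower in mLN. With edgeR's quasi-likelihood test and a call at a Benjamini-Hochberg adjusted p under 0.05 across the whole table, 43 of the 48 were lower in mLN, 1 was higher and 4 were not called. Of all 14427 genes, 45.5% were called, 23.8% as lower and 21.8% as higher in mLN. The median log2 fold change (mLN over spleen) of the members was -1.07, with a range from -1.63 to 0.30, beside a median of -0.00179 and quartiles of -0.309 and 0.205 over all genes. Among the members, 29 were called and at least 2-fold lower, as were 8.60% of all genes. For 43 members, every mLN library lay below every spleen library, as it did for 27.5% of all genes. With Smc4, the tissues did not overlap for 44 members, as for 52.9% of all genes. In bulk samples, fewer dividing cells and less of these RNAs per cell cannot be told apart.

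**Figure D2:**
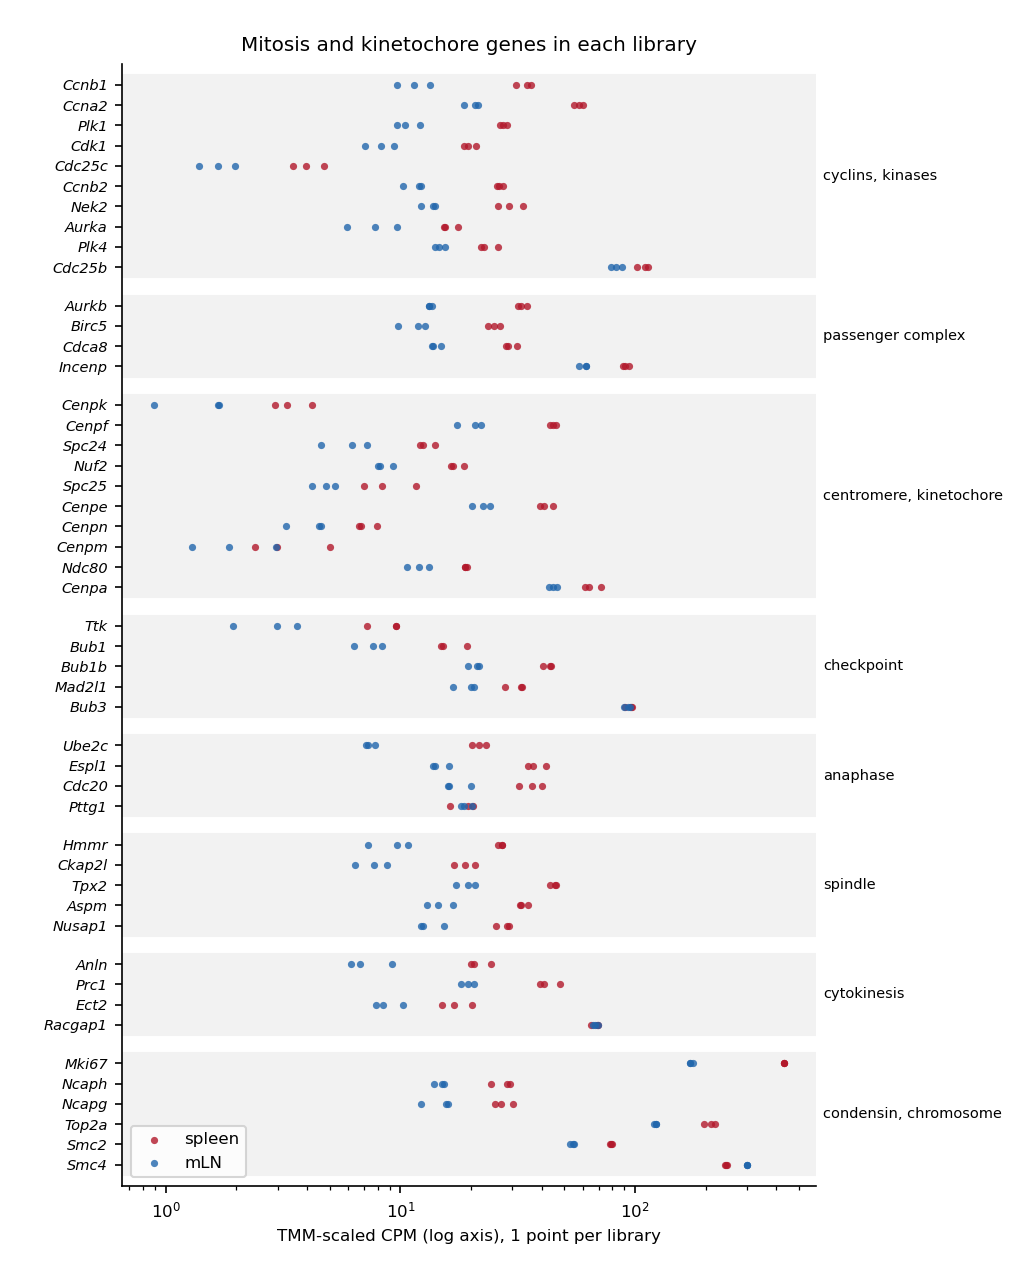
Each row is 1 member, grouped by role, and each point is 1 library (red spleen, blue mLN; 3 of each) on a log axis of TMM-scaled CPM (counts per 1000000 after library scaling). Red and blue points are apart in every row but those of Cenpm, Bub3, Pttg1 and Racgap1, and Smc4 is the row in which blue lies to the right.

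Summed over the 48 genes, the level was 2371, 2365 and 2396 CPM in the spleen libraries and 1462, 1446 and 1458 CPM in the mLN libraries, a ratio of 1.63 between the means. Counts per 1000000 (CPM) were scaled by edgeR's TMM factors and compare 1 gene between libraries. TPM, which also divides by gene length, is used below to compare genes with each other. The members made up 0.138%, 0.142% and 0.139% of all TPM in spleen and 0.0845%, 0.0815% and 0.0837% in mLN. Mki67 alone gave between 18.1% and 18.2% of the members' summed CPM in spleen and between 11.7% and 12.2% in mLN. Without Mki67 the ratio of the sums was 1.52, and without Mki67, Top2a and Smc4, 3 of the genes with the highest counts, it was 1.73.

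**Figure D3:**
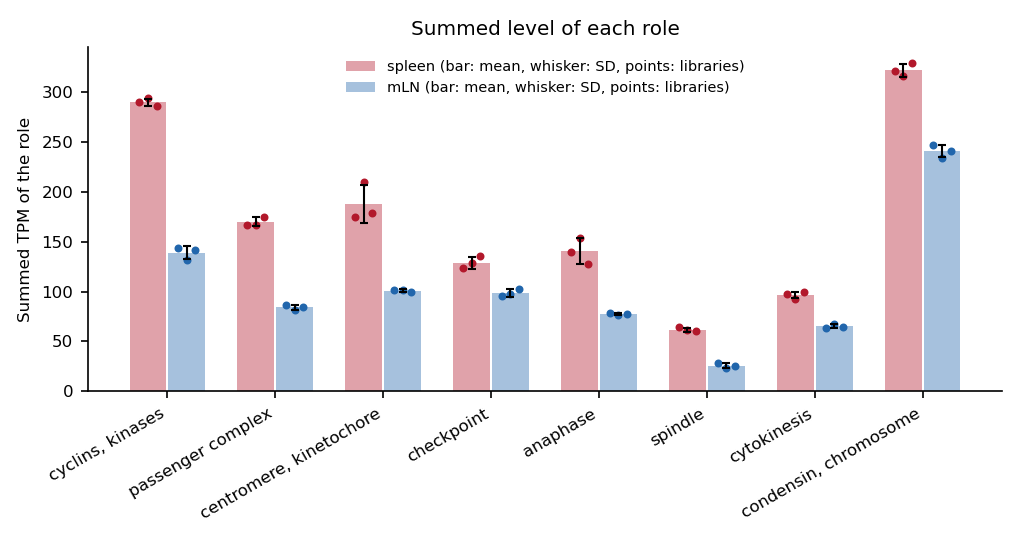
Bars give the mean summed TPM of each role in spleen (red) and mLN (blue), whiskers the SD and points the 3 libraries of each tissue. In all 8 roles the mLN points lie below the spleen points, with the widest ratio for spindle genes (2.40) and the narrowest for checkpoint genes (1.31).

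Markers of other cells moved with the tissues too. The counts below stand beside 23.8% of all genes tested called lower in mLN and 21.8% called higher. All 12 erythroblast markers were lower in mLN (summed level 1864 to 1932 CPM in spleen and 79.5 to 89.3 CPM in mLN), with Car1 at 0 in every mLN library. Most of the mLN sum was Tfrc alone (mean 152 CPM in spleen against 66.0 CPM in mLN). All 10 neutrophil-precursor markers were lower (1022 to 1053 CPM against 0.337 to 1.07 CPM), with Elane, Ctsg, Ms4a3, Cebpe and Fcnb at 0 in every mLN library. The 7 tested of 9 stem and progenitor markers were lower (141 to 150 CPM against 60.2 to 62.7 CPM, with Gfi1b at 0 in mLN). Myb gave most of that mLN sum (mean 65.7 CPM in spleen against 43.9 CPM in mLN). Among lymphocyte markers, 10 of 10 for B cells were lower (6456 to 6603 CPM against 3649 to 3706 CPM), as were 6 of 8 for germinal-centre B cells (141 to 147 CPM against 96.6 to 106 CPM) and 7 of 8 for plasma cells (1216 to 1218 CPM against 497 to 517 CPM). In contrast, 10 of 10 T-cell markers were higher in mLN (1380 to 1400 CPM against 2840 to 2885 CPM). Of 8 macrophage markers, 4 were lower (247 to 256 CPM against 196 to 199 CPM). Of 7 megakaryocyte and platelet markers, 4 were tested, of which 3 were lower and 1 higher (75.5 to 77.0 CPM against 104 to 114 CPM; Ppbp and Gp9 at 0 in mLN). The higher one, Itgb3, gave most of that sum (mean 58.1 CPM in spleen against 107 CPM in mLN), which without it was lower in mLN. Of 8 markers of non-hematopoietic stroma, 4 were tested and 2 were lower (207 to 212 CPM against 207 to 228 CPM, nearly all of it Pecam1; Pdpn at 0 in both tissues). The part of these cell types in the mitotic result was not tested. Ptprc, which encodes CD45, was present in both tissues, with a mean of 2191 CPM for spleen and 2675 CPM for mLN.

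Mitotic cyclins, Cdk1 and the kinases around it were lower in mLN in 10 of 10 cases, with a median log2 fold change of -1.23. Ccna2 encodes cyclin A2, which acts from S phase into early mitosis (chr3:36564865-36572150, GRCm38, as all gene positions here). It stood at 54.8, 57.4 and 60.0 CPM in the spleen libraries and 18.7, 20.8 and 21.5 CPM in the mLN libraries (log2 fold change -1.50, SE 0.0796, edgeR adjusted p = 9.62e-20). Ccnb1 encodes cyclin B1, the partner of Cdk1 at mitotic entry (chr13:100778650-100786570), and had 35.9, 31.2 and 34.6 CPM in the spleen libraries and 9.67, 13.4 and 11.4 CPM in the mLN libraries (log2 fold change -1.55, SE 0.109, edgeR adjusted p = 9.74e-16). For both cyclins the spleen and mLN libraries were far apart and did not overlap. Cdc25b, a phosphatase that activates Cdk1 (chr2:131186949-131198497), had the highest TPM of this role and the smallest difference. Its values were 110, 102 and 114 CPM in the spleen libraries and 88.3, 78.7 and 83.2 CPM in the mLN libraries (log2 fold change -0.39, SE 0.0514, edgeR adjusted p = 2.82e-08), with all spleen libraries above all mLN libraries. Cdk1 itself, the kinase at the centre of mitotic entry, had 19.4, 21.1 and 18.6 CPM in the spleen libraries and 8.27, 7.09 and 9.39 CPM in the mLN libraries (log2 fold change -1.27). The other members were cyclin B2 (Ccnb2, -1.20), the polo-like kinase Plk1 (-1.34), the Cdk1 phosphatase Cdc25c (-1.26), the centrosomal kinases Nek2 (-1.14) and Aurka (-1.07) and the centriole-duplication kinase Plk4 (-0.68), each called lower.

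The chromosomal passenger complex corrects faulty kinetochore attachments through its kinase Aurora B, and 4 of 4 subunits were lower in mLN (median -1.10). The kinase gene Aurkb (chr11:69045647-69051664) had 34.5, 31.8 and 32.7 CPM in the spleen libraries and 13.7, 13.3 and 13.2 CPM in the mLN libraries (log2 fold change -1.30, SE 0.0981, edgeR adjusted p = 8.14e-15). Birc5 (chr11:117849251-117855743), which encodes survivin, the subunit that brings the complex to the centromere, had 25.0, 26.7 and 23.7 CPM in the spleen libraries and 11.9, 9.79 and 12.7 CPM in the mLN libraries (log2 fold change -1.14, SE 0.116, edgeR adjusted p = 3.99e-11). Cdca8, the borealin gene, had a log2 fold change of -1.06. The scaffold gene Incenp (chr19:9872296-9899551), with the highest TPM of the 4, stood at 94.6, 88.8 and 90.4 CPM in the spleen libraries and 57.4, 61.8 and 61.9 CPM in the mLN libraries (log2 fold change -0.60, SE 0.0558, edgeR adjusted p = 4.15e-12). None of the 4 overlapped between tissues, and the scaffold showed the smallest difference.

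Of 10 centromere and kinetochore genes, 9 were lower in mLN and 1, Cenpm, was not called (median -0.90). Cenpa encodes the histone H3 variant that marks centromeres (chr5:30666777-30674830) and had the highest TPM of the role. It stood at 61.4, 71.6 and 63.6 CPM in the spleen libraries and 43.0, 46.5 and 44.9 CPM in the mLN libraries (log2 fold change -0.55, SE 0.0683, edgeR adjusted p = 6.87e-09), and the tissues did not overlap. Cenpk belongs to the inner kinetochore network that is bound to Cenpa chromatin (chr13:104228611-104252392). Its level was low, 2.93, 4.20 and 3.29 CPM in the spleen libraries and 1.67, 1.69 and 0.891 CPM in the mLN libraries (log2 fold change -1.27, SE 0.334, edgeR adjusted p = 0.00166), and Ppwd1 on the opposite strand overlaps it at 21.4 CPM, so its reads are uncertain if strand was not used in counting. Cenpf, a large protein of the outer kinetochore (chr1:189640606-189688086), had 46.2, 43.3 and 44.7 CPM in the spleen libraries and 20.8, 17.4 and 22.0 CPM in the mLN libraries (log2 fold change -1.16, SE 0.0876, edgeR adjusted p = 6.98e-15).

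For Cenpf, Cenpk and Cenpn the scale mattered to the call, as the effective length that the authors deposited for a gene differed between libraries. The effective length of Cenpf was 10424, 6343 and 10395 bases in spleen and 10833, 10914 and 2922 bases in mLN. Its TPM was 6.53, 10.1 and 6.40 in the spleen libraries and 2.77, 2.29 and 10.8 in the mLN libraries, so the third mLN library was highest on that scale. With these lengths as an offset in the edgeR fit, Cenpf was no longer called (log2 fold change -0.70, adjusted p = 0.51). Neither were Cenpk (-1.14, adjusted p = 0.0854) and Cenpn (-0.80, adjusted p = 0.0693). With the offset, 40 of the 43 lower members were still called. Over all genes, 4645 were called in either direction with it, against 6569 in the main fit. A share of lower calls alone is not given for the offset, so members and all genes are not directly comparable here. Cenpm, another subunit of the inner kinetochore network (chr15:82233779-82244748), had 2.41, 2.99 and 5.02 CPM in the spleen libraries and 2.94, 1.29 and 1.86 CPM in the mLN libraries (log2 fold change -0.78, SE 0.334, edgeR adjusted p = 0.0538). Its tissues overlapped, as the first spleen library lay below the first mLN library. Without the first spleen library Cenpm was called lower (-0.99, adjusted p = 0.0311), as it was without the first mLN library (-1.15, adjusted p = 0.0119).

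The Ndc80 complex, a 4-subunit rod that binds microtubules, can be read across its partners. Mean TPM in spleen was 13.9 for Ndc80, 13.9 for Nuf2, 24.2 for Spc24 and 11.8 for Spc25, and in mLN 8.77, 6.59, 7.95 and 6.07. The log2 fold changes of the counts were -0.66, -1.02, -1.09 and -0.91, all called lower. Differences between the 4 subunits were not tested. The kinetochore motor Cenpe (-0.90) and the nucleosome-binding subunit Cenpn (-0.78) were lower as well.

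**Figure D4:**
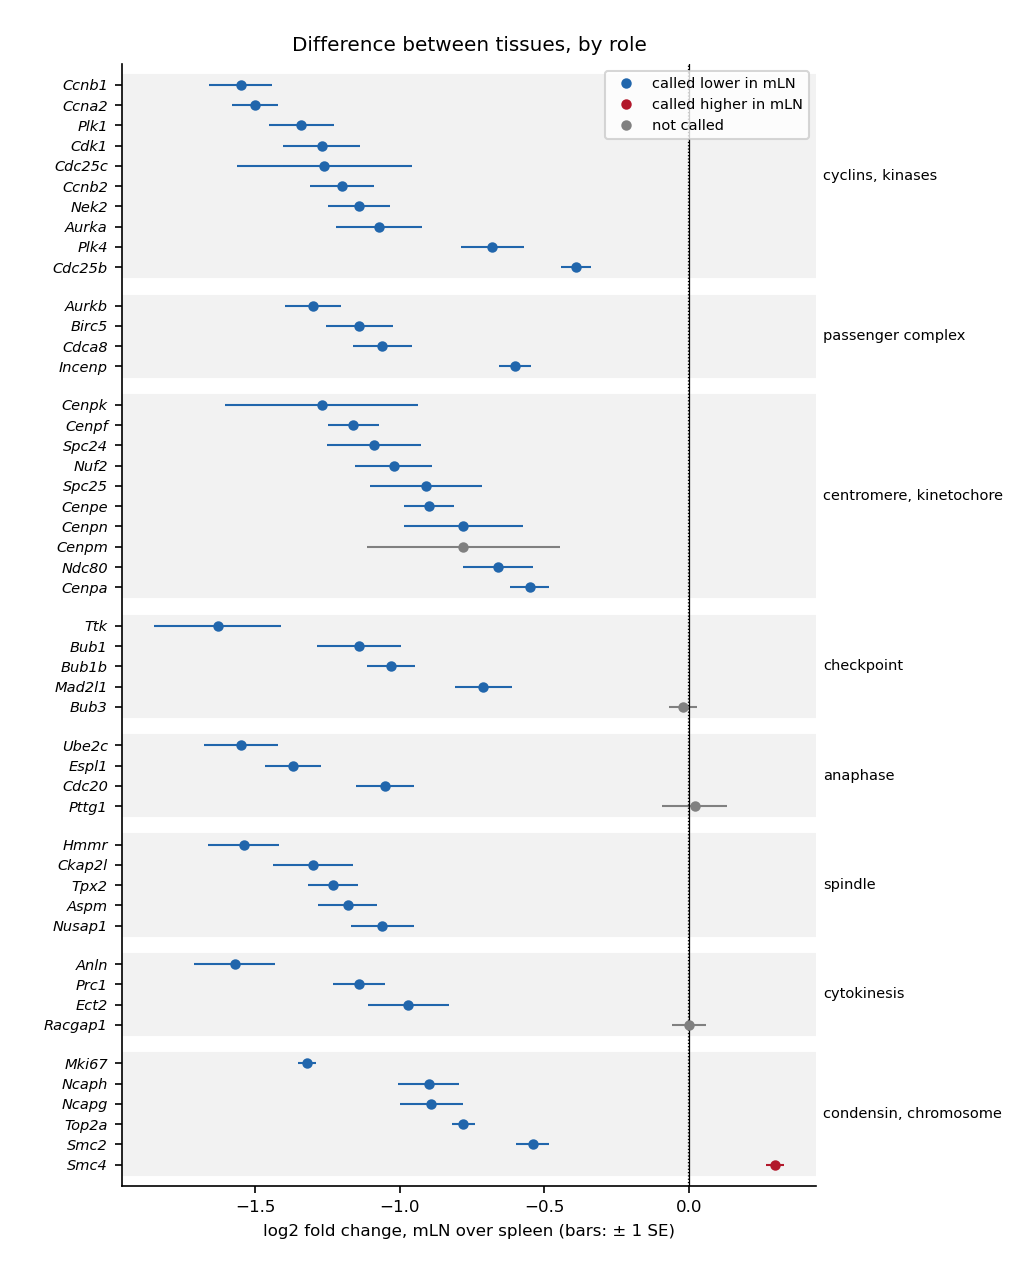
Points are fitted log2 fold changes (mLN over spleen) of the 48 members by role, with bars of 1 SE. Blue is lower in mLN, red higher and grey not called. Most points lie between -1.6 and -0.8, and Bub3, Pttg1, Racgap1 and Smc4 lie near or right of 0.

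The spindle checkpoint stops anaphase while kinetochores are unattached, and 4 of its 5 genes were lower in mLN (median -1.03). Ttk, the kinase Mps1 that starts the signal (chr9:83834689-83872389), had 7.24, 9.56 and 9.62 CPM in the spleen libraries and 1.93, 2.98 and 3.64 CPM in the mLN libraries (log2 fold change -1.63, SE 0.220, edgeR adjusted p = 3.96e-08). This was the largest fitted difference among the 48 genes, 3.10-fold, at a low level. The kinase gene Bub1 (chr2:127801122-127831865) had 15.2, 14.9 and 19.3 CPM in the spleen libraries and 7.61, 8.32 and 6.32 CPM in the mLN libraries (log2 fold change -1.14, SE 0.145, edgeR adjusted p = 1.12e-08), without overlap between tissues. Its relative Bub1b, which encodes BubR1 (-1.03), and Mad2l1, the Mad2 inhibitor of Cdc20 (-0.71), were lower too. Bub3 (chr7:131560222-131571895), the adaptor that carries Bub1 and BubR1 to the kinetochore, had the highest TPM of the role and was not called. It stood at 90.3, 96.6 and 95.6 CPM in the spleen libraries and 94.7, 93.0 and 90.0 CPM in the mLN libraries (log2 fold change -0.02, SE 0.0488, edgeR adjusted p = 0.74), and the libraries of both tissues were interleaved. By TPM, the ratio of Bub3 to Bub1b was 3.14, 3.29 and 2.39 in spleen and 7.32, 5.29 and 4.60 in mLN. Bub1b had 40.7, 43.4 and 43.7 CPM in the spleen libraries and 21.6, 21.3 and 19.4 CPM in the mLN libraries. The drift of the ratio across the mLN libraries was thus seen in Bub1b TPM (8.99, 12.3 and 13.5) and not in its CPM.

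Of 4 genes of the anaphase switch, 3 were lower in mLN (median -1.21). Ube2c encodes the ubiquitin-conjugating enzyme of the anaphase-promoting complex (chr2:164769898-164778822). Its level was 21.6, 23.1 and 20.1 CPM in the spleen libraries and 7.27, 7.14 and 7.77 CPM in the mLN libraries (log2 fold change -1.55, SE 0.128, edgeR adjusted p = 1.19e-13), which set the tissues wide apart. Espl1, the gene of the protease separase that cuts cohesin (chr15:102296266-102324357), had 36.7, 41.7 and 35.0 CPM in the spleen libraries and 16.1, 14.0 and 13.8 CPM in the mLN libraries (log2 fold change -1.37, SE 0.0972, edgeR adjusted p = 1.22e-15). Cdc20, the activator of the anaphase-promoting complex, had a log2 fold change of -1.05. Pttg1 encodes securin, the inhibitor that holds separase until anaphase (chr11:43420250-43426251). It had 20.4, 19.5 and 16.2 CPM in the spleen libraries and 20.2, 18.7 and 18.1 CPM in the mLN libraries (log2 fold change 0.02, SE 0.111, edgeR adjusted p = 0.885), and the tissues overlapped. The TPM ratio of Pttg1 to Espl1, inhibitor to protease, was 3.37, 1.79 and 2.74 in spleen and 7.50, 5.49 and 7.91 in mLN.

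All 5 spindle genes were lower in mLN (median -1.23). Tpx2, which activates Aurora A on the spindle (chr2:152847964-152895321), had the highest TPM of them and 45.8, 43.4 and 46.2 CPM in the spleen libraries and 19.5, 20.7 and 17.2 CPM in the mLN libraries (log2 fold change -1.23, SE 0.0854, edgeR adjusted p = 6.35e-16). Hmmr, a spindle-pole protein that also binds hyaluronan (chr11:40701395-40733422), had 27.0, 26.1 and 27.1 CPM in the spleen libraries and 10.8, 7.31 and 9.72 CPM in the mLN libraries (log2 fold change -1.54, SE 0.123, edgeR adjusted p = 4.21e-14). Ckap2l, a microtubule-associated spindle protein (chr2:129268210-129297212), had 18.9, 20.8 and 17.0 CPM in the spleen libraries and 8.74, 7.70 and 6.40 CPM in the mLN libraries (log2 fold change -1.30, SE 0.137, edgeR adjusted p = 1.13e-10). Nusap1, which bundles spindle microtubules near chromatin (chr2:119618298-119651244), showed the smallest difference of the role. It had 28.5, 25.5 and 29.1 CPM in the spleen libraries and 12.5, 12.3 and 15.4 CPM in the mLN libraries (log2 fold change -1.06, SE 0.109, edgeR adjusted p = 6.68e-11), still without overlap. The fifth gene, Aspm, which focuses spindle poles, had a log2 fold change of -1.18.

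In cytokinesis, 3 of 4 genes were lower (median -1.06). Anln encodes anillin, the scaffold of the contractile ring (chr9:22332012-22389188), and had 20.0, 20.5 and 24.4 CPM in the spleen libraries and 6.74, 6.13 and 9.23 CPM in the mLN libraries (log2 fold change -1.57, SE 0.140, edgeR adjusted p = 1.01e-12). Prc1 (chr7:80294450-80316259), which bundles the microtubules of the central spindle, had 39.3, 41.1 and 47.9 CPM in the spleen libraries and 19.5, 18.2 and 20.5 CPM in the mLN libraries (log2 fold change -1.14, SE 0.0897, edgeR adjusted p = 2.52e-14). Ect2, the exchange factor that activates RhoA at the cleavage furrow, had a log2 fold change of -0.97. Racgap1, the centralspindlin subunit that recruits Ect2 (chr15:99620496-99651656), had the highest TPM of the 4 and was not called. Its counts were almost equal, 68.6, 69.5 and 65.0 CPM in the spleen libraries and 67.8, 69.5 and 66.1 CPM in the mLN libraries (log2 fold change 0.00, SE 0.0581, edgeR adjusted p = 0.97). On the TPM scale it had 52.8, 49.4 and 53.7 in the spleen libraries and 41.3, 47.8 and 44.7 in the mLN libraries, with every spleen library above every mLN library. With effective lengths as an offset its log2 fold change was -0.18 (adjusted p = 0.117), so it was called on neither scale. By TPM the ratio of Racgap1 to Ect2 was 4.58, 6.11 and 7.33 in spleen and 6.29, 13.1 and 14.0 in mLN, which overlapped. The overlap belongs to the TPM scale, on which effective lengths differ between libraries. By CPM, Racgap1 was almost equal between tissues, as above. Ect2 had 20.2, 15.1 and 16.9 CPM in the spleen libraries and 10.3, 7.87 and 8.42 CPM in the mLN libraries, without overlap.

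Genes of condensin and chromosome structure split, with 5 of 6 lower in mLN and 1 higher (median -0.84). Mki67, which encodes the proliferation marker Ki-67, a coat of mitotic chromosomes (chr7:135689784-135716361), had 432, 430 and 433 CPM in the spleen libraries and 171, 171 and 177 CPM in the mLN libraries (log2 fold change -1.32, SE 0.0315, edgeR adjusted p = 9.27e-32). Replicates agreed closely here, and this gene had the smallest adjusted p of the 48. Ncaph, a kleisin subunit of condensin I (chr2:127103809-127133954), had 29.3, 28.6 and 24.3 CPM in the spleen libraries and 15.3, 13.9 and 15.0 CPM in the mLN libraries (log2 fold change -0.90, SE 0.106, edgeR adjusted p = 1.75e-09). Its partner Ncapg (-0.89) and the topoisomerase gene Top2a, whose enzyme untangles sister DNA (-0.78), were also lower. Smc2 and Smc4 encode the ATPase pair at the core of every condensin, and they went in opposite directions. Smc2 had 78.0, 79.6 and 79.2 CPM in the spleen libraries and 55.0, 53.0 and 54.3 CPM in the mLN libraries (log2 fold change -0.54), and Smc4 (chr3:69004738-69034623) had 242, 246 and 244 CPM in the spleen libraries and 299, 299 and 301 CPM in the mLN libraries (log2 fold change 0.30, SE 0.0311, edgeR adjusted p = 1.05e-10). Neither gene overlapped between tissues, and the ratio of Smc4 to Smc2 by TPM was 5.07, 5.20 and 5.21 in spleen and 7.60, 8.49 and 8.93 in mLN. Smc4 was also the member with the highest TPM in both tissues (mean 117 and 133). The partner ratios of Smc4, Bub3, Pttg1 and Racgap1 were chosen after their values were seen and are given without a test. As ratios of TPM, they also depend on the effective lengths deposited for each library.

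Members that stood high in both tissues differed less. The 10 members highest by mean TPM had a median log2 fold change of -0.47, and 6 of them were lower in mLN, against a median of -1.14 for the other 38. Over the 48 genes, Spearman's rho between log2 fold change and TPM was 0.49 with the level in mLN and 0.30 with the level in spleen. These are descriptions across genes of the same libraries, and the level in mLN enters both measures. By promoter, the 30 members with a CHR word had a median of -1.07, the 11 with an entry but no such word -1.02, and the 7 with no entry -1.23. Bub3, Racgap1 and Cenpm, which were not called, held a CHR word. Pttg1 held neither a CHR word nor a CCAAT box, and the same was true of Plk4, Birc5, Nuf2, Mad2l1, Nusap1 and Ncaph, which were called lower.

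The other genes of the pathway were read from 8 lists of non-members, 143 genes in all and all of them tested, against the same 23.8% of genes lower and 21.8% higher. Of 33 further kinetochore genes, 20 were lower in mLN and 13 were not called (median -0.59). Ska1, which helps the Ndc80 complex hold on to microtubules, was at 4.16 ± 0.338 CPM in spleen against 1.04 ± 0.201 CPM in mLN (mean ± SD of 3 libraries; log2 fold change -1.99), and Oip5, part of the Mis18 complex that readies centromeres for Cenpa, had -1.42. Of 4 other condensin subunits, 3 were lower (median -0.37), with Ncapg2 at -1.06 and Ncapd2 at -0.59. Of 14 other regulators of mitotic entry and exit, 11 were lower (median -0.84), with the kinase Pbk at -1.58 and cyclin F (Ccnf) at -1.36. All 3 medians lay between those of the members and of all genes.

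The anaphase-promoting complex and cohesin had medians near that of all genes. Of 17 subunits and inhibitors of the anaphase-promoting complex, 5 were lower and 2 higher (median -0.05). The falls included its mitotic inhibitor Fbxo5 (-0.72) and its G1 activator Fzr1 (-0.50), and the rises were in the subunits Anapc16 (0.20) and Anapc1 (0.13). Of 13 cohesin genes, 3 were lower and 5 higher (median 0.09). Esco2, which acetylates cohesin in S phase (-1.59), and Cdca5, the sororin gene (-0.93), were lower, while the ring subunit Smc1a (0.21) and the loader Nipbl (0.19) were higher. These rises were small beside the falls of Esco2 and Cdca5.

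Among 23 regulators of mitotic transcription, 11 were lower and 1 higher (median -0.12). E2f8, an atypical E2F that represses transcription, had 36.1 ± 1.20 CPM in spleen against 8.30 ± 0.680 CPM in mLN (mean ± SD of 3 libraries; log2 fold change -2.11). Mybl2, which encodes B-Myb, the activating partner of the complex that binds CHR words, had 31.1 ± 1.73 and 9.38 ± 0.351 CPM (-1.72), and the NF-Y subunit Nfyb was higher (0.20). Of 24 S-phase genes, 21 were lower (median -0.53), with the origin-licensing factor Cdc6 at -1.67 and the ribonucleotide reductase subunit Rrm2 at -1.49. The G1 list was mixed, with 6 of 15 lower and 2 higher (median -0.28). Cyclin E2 (Ccne2, -1.47) and cyclin D1 (Ccnd1, -1.34) were lower, while cyclin D2 (Ccnd2) went from 273 ± 1.97 CPM in spleen to 615 ± 10.7 CPM in mLN (1.17) and the inhibitor Cdkn2d was higher as well (0.31). Single log2 fold changes in these lists are from the same edgeR fit, and each gene named was called.

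**Figure D5:**
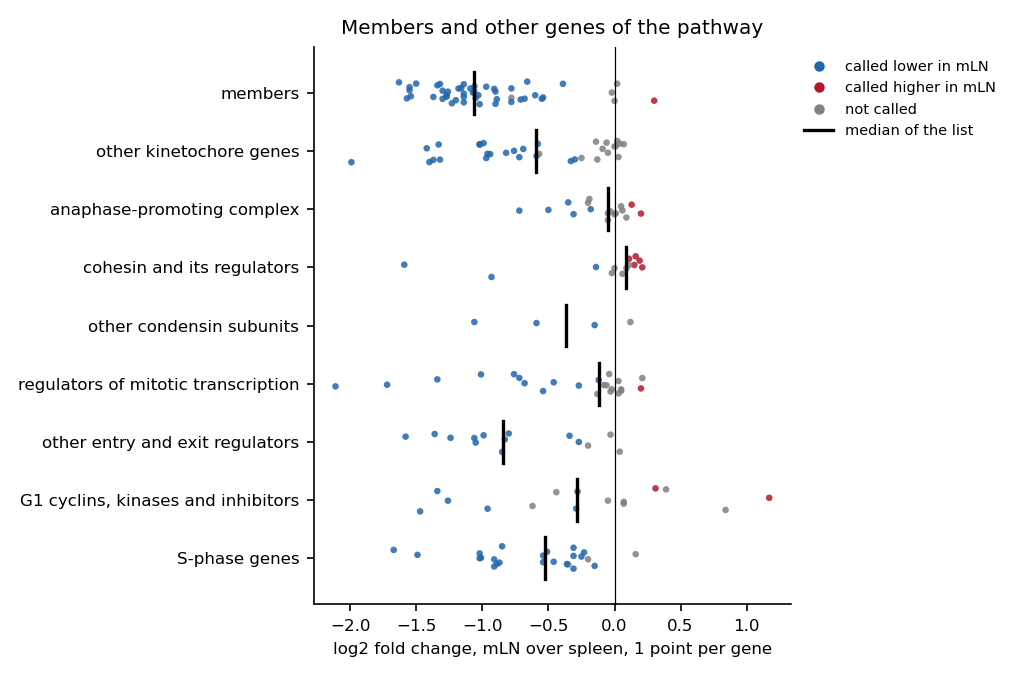
Each point is a gene, each row the members or 1 of the 8 other lists, and the x axis is the fitted log2 fold change (mLN over spleen), coloured by call. Black bars are list medians, which run from -1.07 for the members to 0.09 for cohesin and its regulators.

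The calls rest on replicates that lay close together, with a common coefficient of variation of 0.055. With a coefficient of 0.4 assumed instead, 6 of the 43 lower members were still called, beside 5.03% of all genes, and with 0.2 assumed, 39 of the 43 were beside 13.4%, while Smc4 lost its call at both. Members had between 11 and 7512 counts in a library, and 3 members had under 100 in every library. Genes on the opposite strand overlap Ccna2 (Exosc9), Cdc25b (Spef1), Cdca8 (9930104L06Rik), Cdc20 (Elovl1), Nusap1 (Oip5), Prc1 (Rccd1) and Ncapg (Lcorl), besides Cenpk. The processed copies Ccnb1-ps and Ccnb2-ps may share reads with Ccnb1 and Ccnb2, and had 0.219 and 4.15 CPM in spleen and 0.0375 and 4.66 CPM in mLN. Values of these members are uncertain, by an amount that was not measured.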

How the data were processed

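The 6 libraries, 3 from each tissue, held 12584244 to 18119551 expected counts. Per the submitters' processing notes, reads were handled with STAR and RSEM on mm10. Program versions, the transcript annotation and the strand setting were not given in the sources used here. Per the file headers, the authors deposited for each gene an expected count (an estimate that splits reads shared by transcripts), an effective length and a TPM, which sums to 1000000 in each library. Gene identifiers were matched to symbols of GENCODE M21 (55227 of 55487 rows), and the 260 rows without a symbol held 0.0142% to 0.0189% of the counts.

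Expected counts were rounded and tested across all genes that passed filterByExpr with edgeR 4.0.16 in R 4.3.3 (TMM factors 0.982 to 1.02, robust quasi-likelihood fit, tissue as the only term). Adjusted p-values are Benjamini-Hochberg over the 14427 genes tested, two-sided. Each SE is the absolute log2 fold change divided by the square root of the quasi-likelihood F statistic. It was thus worked back from the test and not estimated separately. TPM and effective length were used as deposited. Within a tissue, pairs of libraries differed by 2.52 to 2.96 times counting noise (median squared difference), so all 6 were kept as separate samples. Alternatives were other scalings and filters, DESeq2 1.42.0, a length offset, leaving out globin, receptor-segment, mitochondrial and ribosomal protein genes, assumed coefficients of variation (likelihood-ratio test), a replicate block and leaving out each library.

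Members and lists were chosen with earlier results of these data known. Values per library are given, in each role, for the member with the highest mean TPM, the 2 largest called falls and the smallest fall or largest rise, and for every member not called or called higher; other values named were added to show partners. From each list of other pathway genes, up to 2 called falls and 2 called rises are named. Promoter words were searched by exact match on both strands. Some single marker genes are not reported here.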

Additional observations from a re-analysis of the deposited data

How the results depend on the processing

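Over 16 other fits, 710 of 768 pairs of a member and a fit kept the direction and side of the threshold, 46 lost and 3 gained a call, and 9 changed sign. Of the 44 called members, 41 kept their call in all fits but those with an assumed coefficient of variation, and 6 in all. With a coefficient of 0.2, 2868 genes were called, 0 members were called higher (Smc4 unadjusted p = 0.212), and lower calls numbered 1 for the anaphase-promoting complex, 1 for other condensin subunits, 7 for transcription regulators and 10 for S-phase genes. With 0.4, 923 genes and 6 members (lower) were called, and 0 members were higher. By role the lower calls were then 2 for cyclins and kinases, 0 for the passenger complex, 0 for the centromere and kinetochore, 1 each for checkpoint, anaphase, spindle and cytokinesis, and 0 for condensin. In the other lists they were 1 for kinetochore genes, 0 for the anaphase-promoting complex, 1 for cohesin, 0 for condensin, 2 for regulators, 1 for entry and exit, 1 for G1 and 2 for S phase. These losses follow from the spread assumed.

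The effective-length offset gave a member median of -1.04. The ratio of summed levels was 1.68 by TPM. CHR words stood in 18 entries when only upstream bases were searched, and E2F words in 4 entries near the start (a window chosen after seeing the data). Pttg1 reversed to -0.03 with the offset and to -0.07 and -0.02 without the third spleen or first mLN library (range over left-out libraries -0.07 to 0.09). Racgap1 reversed to -0.01 (upper-quartile factors), -0.00079 (no filter), -0.0002 (at least 1 CPM in 3 libraries), -0.18 (offset), and -0.03 and -0.02 without the third spleen or second mLN library (range -0.03 to 0.02). Neither was called in any fit. Leaving out 1 library at a time gave 5854 to 6322 called genes, 43 to 44 lower members and a median of -1.10 to -1.04.

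Deviations of same-numbered libraries of the tissues had correlations of 0.0267, 0.0275 and -0.0081, beside -0.0394 to 0.0123 for pairs of unlike number. Values this weak cannot settle whether the numbers pair libraries, and the labels do not say. With the replicate block, 6455 genes, 43 lower members and 1 higher member were called, with a median of -1.07.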
